A study of Mus musculus with 4 samples.

Results

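The gene described here is Npy (ENSMUSG00000029819), which encodes neuropeptide Y, and it is 1 of the 31053 genes counted in each library of mouse bone marrow (BM) macrophages. It was chosen because earlier results of these data showed it at different levels in efferocytic and non-efferocytic BM macrophages, so its own levels are given as a description, with no test. BM macrophages came from male C57BL/6J mice, 4 weeks old by the description of the single-cell experiment and 4 to 6 weeks old by the general methods, and were grown for 4 days in macrophage colony stimulating factor. Efferocytic BM macrophages were co-cultured for 16 to 18 h with UV-killed, CFSE-labelled RM1 cells, a mouse prostate cancer line, and sorted as F4/80+CFSE+ cells. Non-efferocytic BM macrophages were sorted as F4/80+ only. The study calls them both non-engulfing BM macrophages and BM macrophages alone, so whether they met RM1 cells is not clear. Each of 2 experiments gave 1 library of each kind, and although the methods give a minimum number of independent mice per group for BM macrophage experiments at large, they do not tie mice to single libraries, so a p-value measures only the spread between these 4 libraries.

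Neuropeptide Y is a secreted peptide best known as a transmitter of hypothalamic and sympathetic neurons, where it is stored in dense-core vesicles and acts on G protein-coupled Y receptors. It is made as a precursor that is cut by prohormone convertases, trimmed by carboxypeptidase E and amidated at its end, and dipeptidyl peptidase 4 can later remove its first residues. Immune cells, macrophages among them, are also known to make it and to carry Y receptors, and in BM the peptide is known from sympathetic fibres.

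In the annotation of the mm10 assembly, Npy lies on chromosome 6, from position 49822710 to 49829507 on the plus strand. It has 4 exons, 3 of them coding, and a transcript of 566 bases. No other annotated gene overlaps it or lies within 5000 bases, so reads assigned to Npy compete with no neighbour. The promoter of Npy is shown because the study is concerned with hypoxia-inducible factors, whose binding sites share short core letters. These are the 250 bases before the start of the gene, chr6:49822460-49822709 of GRCm38.p6, plus strand, from RefSeq.
Npy promoter: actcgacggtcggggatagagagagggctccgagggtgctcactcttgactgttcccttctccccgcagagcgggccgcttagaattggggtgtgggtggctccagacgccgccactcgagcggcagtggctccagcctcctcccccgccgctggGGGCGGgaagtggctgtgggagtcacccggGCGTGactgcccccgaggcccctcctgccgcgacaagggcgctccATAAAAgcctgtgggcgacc
The capitals mark a GC box (GGGCGG) that begins at position -95, a GCGTG at position -65 and an ATAAAA at position -20, counted from the base before the start as -1. ACGTG or GCGTG, the core letters of the hypoxia response element, stood on either strand in 38.6% of the 32851 promoters of the same length, GGGCGG in 32.7% and ATAAAA in 17%. The full cAMP response element TGACGTCA and its short form TGACG were not among these 250 bases, and were found in 1.55% and 17.8% of promoters. A match of this kind is a description of letters and not of a binding site.

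A barcode was taken as a cell from 200 genes and 1000 unique molecular identifiers (UMIs, each marking 1 captured RNA molecule) upwards, if mitochondrial UMIs were at most 10%. These limits, which the methods state, were applied to all barcodes, and they left more cells in every library than the study lists. They numbered 8280 (non-efferocytic, Experiment 1), 6695 (efferocytic, Experiment 1), 13411 (non-efferocytic, Experiment 2) and 8408 (efferocytic, Experiment 2), and held 101216659 to 155224183 UMIs per library. The efferocytic cells were deeper, with a median of 17171 and 17476 UMIs against 11146 and 9600. The libraries of Experiment 2 shared 118 cell barcodes, where an even spread over the barcodes would give 16.6, and without them Npy stood at 63.1 and 267 counts per 1000000 UMIs (CPM), as it did with them. In every library most cells fell into macrophage-like clusters that carried 10 or 11 of the 11 macrophage markers, and small clusters with neutrophil or fibroblast markers were present as well. Unnamed clusters of low depth, with medians of 1252 to 1403 UMIs, held 449 non-efferocytic and 290 efferocytic cells in Experiment 1. In Experiment 2 they held 2436 and 315, and a T and NK cell-like cluster held 71 and 63. All of these are part of the values for whole libraries. Markers of neurons were at or near 0: the 8 listed genes summed to 0.155 to 0.336 CPM per library, and Th, Dbh and Snap25 had no UMI. The 16 listed markers of RM1-type tumor cells summed to 183 and 162 CPM in the non-efferocytic libraries and to 47.3 and 60.7 CPM in the efferocytic libraries, with 8 of them under 1 CPM throughout. Most of that sum came from Col1a1, Col1a2 and Tagln, which fibroblasts share, at 67.7, 58.4 and 34.96 CPM in the non-efferocytic library of Experiment 1. The study lists RM1 as fibroblast-like, and no library is of RM1 cells, so this sum cannot measure RM1 RNA. Whether any Npy RNA came from engulfed RM1 cells was not tested.

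Npy was detected in every library and stood higher in the efferocytic library of both experiments. In Experiment 1 it had 3973 UMIs in non-efferocytic cells, or 39.3 CPM (exact Poisson 95% interval 38.0 to 40.5), and 18511 UMIs in efferocytic cells, or 148 CPM (146 to 150). In Experiment 2 the values were 8741 UMIs, or 63.2 CPM (61.9 to 64.5), and 41460 UMIs, or 267 CPM (265 to 270). The order from low to high was therefore non-efferocytic Experiment 1, non-efferocytic Experiment 2, efferocytic Experiment 1 and efferocytic Experiment 2, and no counting interval touched the next, although these intervals cover counting error alone. The ratio of efferocytic to non-efferocytic cells was 3.77 in Experiment 1 and 4.23 in Experiment 2, a mean log2 ratio of 2.00 ± 0.116 (SD, n = 2). The group means were 51.2 ± 16.9 CPM for non-efferocytic and 208 ± 84.2 CPM for efferocytic libraries (SD, n = 2). The groups did not overlap, but Npy was chosen for this contrast, so that is a description and not evidence. The libraries of 1 group differed between experiments as well. Counted per cell, without correction for depth, Npy had 0.480 and 2.76 UMIs in Experiment 1 and 0.652 and 4.93 UMIs in Experiment 2. Among the genes with a UMI, ordered by UMI count, Npy ranked 3155 and 2031 in the non-efferocytic libraries and 859 and 518 in the efferocytic libraries.

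**Figure D1:**
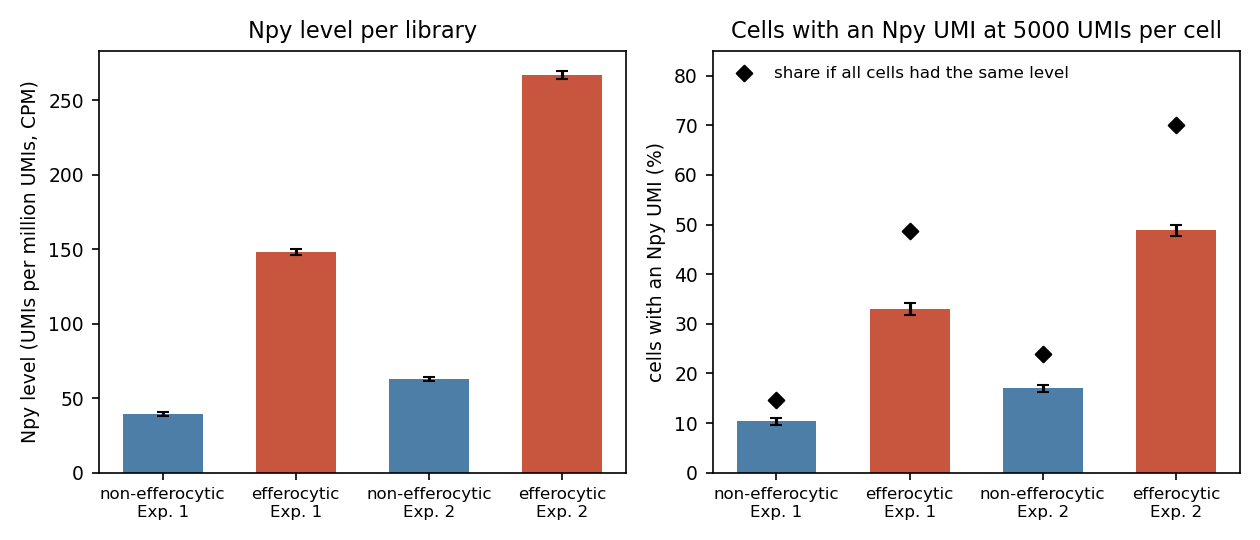
Npy level in CPM (left, bars, with exact Poisson 95% intervals) and share of cells with at least 1 Npy UMI after each cell was thinned to 5000 UMIs (right, bars, with exact binomial 95% intervals), in the 4 libraries. Diamonds give the share that the same number of Npy UMIs would reach if every cell had the same level, and all 4 bars lie below their diamond.

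To compare cells at equal depth, 5000 UMIs were drawn at random from every cell that had as many, which left out 1099, 544, 3404 and 505 cells (non-efferocytic and efferocytic cells of Experiment 1, then of Experiment 2, the order used from here on). An Npy UMI was then found in 10.3% (exact binomial 95% interval 9.65 to 11.1), 32.9% (31.7 to 34.1), 17.0% (16.3 to 17.7) and 48.8% (47.7 to 49.9) of cells. The unthinned shares were 17.9%, 51.9%, 23.7% and 69.0%, and 18.8%, 54.0%, 28.1% and 71.8% in macrophage-like cells. At both depths the efferocytic library held more cells with Npy in each experiment, and at 5000 UMIs the difference averaged 27.2 percentage points (SD 6.54, n = 2).

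Npy was spread unevenly over the cells of every library. With 1 common level, the mean of 0.159, 0.667, 0.274 and 1.20 Npy UMIs per thinned cell would place an Npy UMI in 14.7%, 48.7%, 23.9% and 70.0% of cells, more than were found. The variance exceeded the mean 2.43, 2.87, 2.38 and 3.21 times, where counting alone gives 1. Cells with 6 or more Npy UMIs made up 0.209%, 1.53%, 0.370% and 3.97% of cells, where 1 common level would give 1.96e-06%, 0.00694%, 4.60e-05% and 0.152%. In the efferocytic libraries, then, Npy was both found in more cells and found at more UMIs per cell, while 67.1% and 51.2% of thinned efferocytic cells showed none. The highest count in any unthinned cell was 112, in the efferocytic library of Experiment 2.

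**Figure D2:**
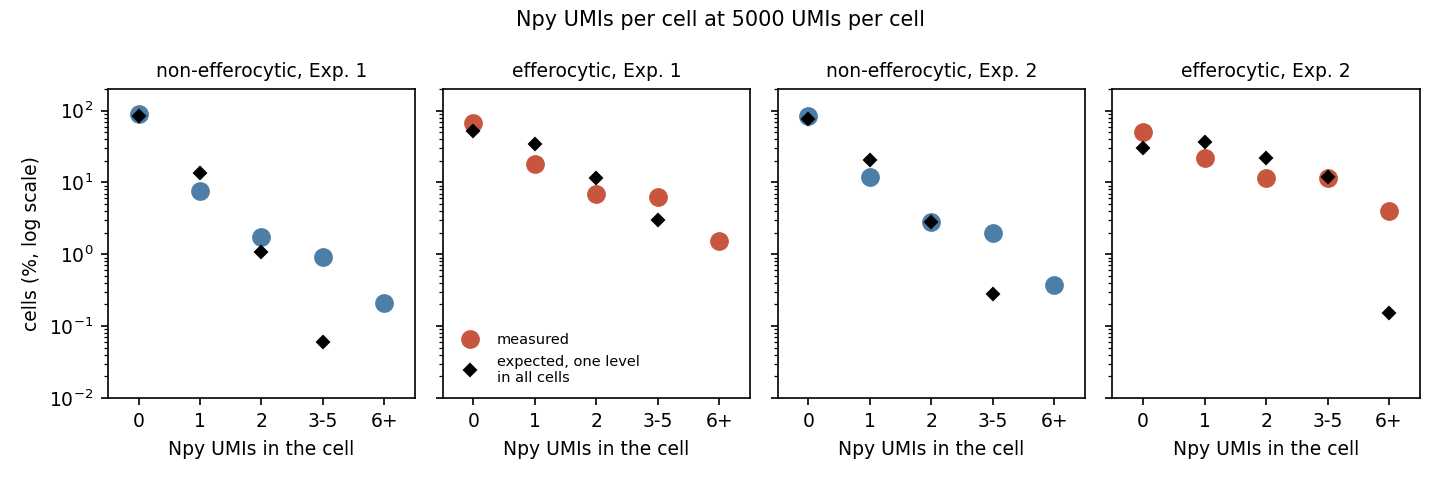
Share of cells (log scale) by number of Npy UMIs after thinning to 5000 UMIs per cell, with 1 panel per library. Circles are measured shares and diamonds the shares expected if all cells had the same level, drawn where above 0.01%, so that the circles stand above the diamonds at 0 UMIs and, for 6 or more, far above any diamond.

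The level of Npy also went with the UMI count of the cell. When the cells of each library were ordered by UMIs and cut into 5 equal bins, Npy was at 15.2 CPM in the lowest bin and 62.9 CPM in the highest for non-efferocytic cells of Experiment 1, and at 77.0 and 187 CPM for efferocytic cells. In Experiment 2 the lowest and highest bins had 39.3 and 93.3 CPM in non-efferocytic cells, with a minimum of 24.8 CPM in the second bin, and 161 and 352 CPM in efferocytic cells. That lowest non-efferocytic bin had a median of 1290 UMIs, near the 1252 UMIs of the unnamed clusters there. Since CPM is already relative to depth, cells with more RNA captured had a larger fraction of it from Npy, and efferocytic cells were higher than non-efferocytic cells in each of the 5 bins of both experiments.

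Some Npy RNA was also present outside cells. Barcodes with 1 to 99 UMIs, which hold mostly free RNA, had Npy at 29.1, 78.8, 57.1 and 185 CPM. In neutrophil-like cells, a type not expected to make it, Npy was at 1.51, 21.4, 18.9 and 53.1 CPM, from 2, 10, 39 and 25 UMIs in 75, 23, 120 and 23 cells. Before thinning 2.67%, 8.70%, 11.7% and 17.4% of these cells had an Npy UMI. After thinning it was seen in 0 of 70 cells (exact binomial 95% interval up to 5.13%) and in 4.55%, 3.57% and 4.76% of cells. Where these few UMIs came from was not tested. The median depth of neutrophil-like cells was 15957, 21454, 15819 and 20526 UMIs. In macrophage-like cells the level was 40.2, 150, 65.0 and 270 CPM and the thinned share 10.5%, 33.1%, 17.2% and 49.0%, at median depths of 11527, 17761, 11077 and 17920 UMIs. The share was thus above that of neutrophil-like cells in all 4 libraries. Fibroblast-like cells, the deepest of all, had 9.83, 3.38, 6.04 and 30.97 CPM.

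Npy differed widely between clusters of macrophage-like cells, which were built separately for each experiment with Npy left out. In Experiment 1 the highest level was in cluster 0, led by Fabp4, Plpp3 and Spp1, with 198 CPM in 2652 efferocytic and 233 CPM in 192 non-efferocytic cells. The lowest was in cluster 1, led by Ednrb, with 27.8 CPM in 127 efferocytic and 6.03 CPM in 2505 non-efferocytic cells. In Experiment 2 the highest was in cluster 4, led by Cdkn1c, Pdpn and Plpp3, with 422 CPM in 2159 efferocytic and 237 CPM in 171 non-efferocytic cells. Cluster 1 of Experiment 2, led by Hpgd, Ednrb and Clec10a, had 45.1 CPM in 84 efferocytic and 18.4 CPM in 4438 non-efferocytic cells. Cluster 0 of Experiment 1 held 39.6% of efferocytic and 2.32% of non-efferocytic cells but 69.3% and 22.2% of their Npy UMIs.

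Within most clusters the gap between the groups was smaller than over whole libraries. Of the 9 macrophage-like clusters of Experiment 1 with at least 50 cells in each library, 8 had more Npy in efferocytic cells, with a median log2 ratio of 1.08 (range -0.23 to 2.21), against 1.92 for the whole libraries, which clusters 1 (2.21) and 9 (1.94) exceeded. Cluster 0 was the exception, with the highest level of all in non-efferocytic cells. In Experiment 2 all 7 such clusters were higher in efferocytic cells, with a median of 1.03 (range 0.74 to 1.73), against 2.08. Clusters with cycling genes were also higher in efferocytic cells: cluster 9 of Experiment 1 (Cenpf, Nusap1) had 177 and 46.2 CPM, and cluster 8 of Experiment 2 (Cenpf, Aspm) had 276 and 99.4 CPM, in efferocytic and non-efferocytic cells. These are sets of cells from 1 library each, so no test was made.

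**Figure D3:**
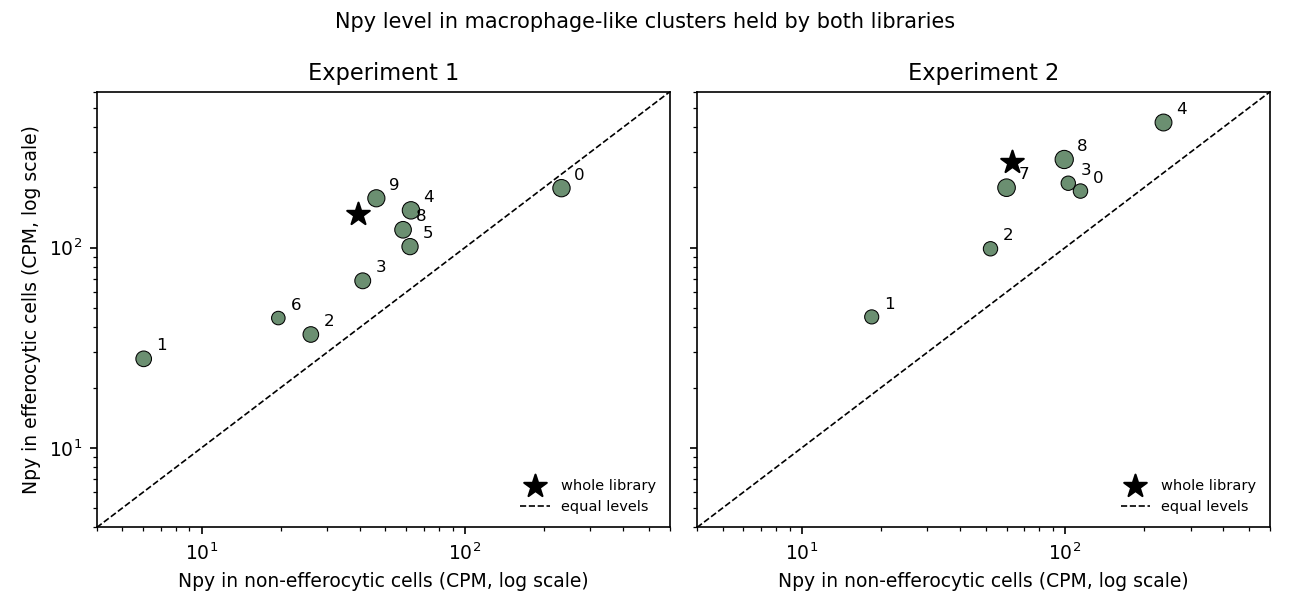
Npy level (CPM, log scales) in efferocytic against non-efferocytic cells of each macrophage-like cluster with at least 50 cells in each library, with the cluster number beside each circle and a star for the whole library. Larger circles have more cells in the smaller of their 2 libraries. Circles above the dashed line are higher in efferocytic cells, and cluster 0 of Experiment 1 is the only circle below it.

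Other genes of the neuropeptide Y system were examined from lists of ligands, receptors, processing enzymes, vesicle proteins and peptidases. The related ligands Pyy and Ppy had no UMI in the cells of any library, and neither had the receptors Npy4r, Npy5r and Npy6r. Npy1r and Npy2r, the Y1 and Y2 receptors, had 1 UMI each, in non-efferocytic cells. A count of 0 allows a level of up to 0.0193 to 0.0296 CPM, depending on the library, and Npy stood at 39.3 to 267 CPM in the same cells.

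The precursor-cutting enzymes of neurons were near 0 too. Pcsk1 and Pcsk2, the prohormone convertases of regulated secretion, had 3 to 14 and 0 UMIs per library. Of the 11 processing genes 5 could be tested in the comparison of efferocytic with non-efferocytic libraries (edgeR, experiment as block), in which 38.9% of the 13869 genes tested were called, 19.9% higher and 19% lower. Cpe, carboxypeptidase E, was at 3.71, 5.56, 6.14 and 8.23 CPM, higher in the efferocytic library of each experiment, with a log2 fold change of 0.61 (SE 0.118, edgeR adjusted p = 0.00548). Pam, which amidates peptides, was at 26.7, 40.5, 27.1 and 41.0 CPM (0.71, SE 0.0758, edgeR adjusted p = 0.000437), and Cpd, a related carboxypeptidase, at 45.5, 65.1, 42.4 and 75.2 CPM (0.78, SE 0.0854, edgeR adjusted p = 0.000489). Furin and Pcsk7, convertases of most cells, were at 44.8 to 59.5 and 10.0 to 12.8 CPM and did not pass the test. Taking UMIs per cell or library totals as the scale moved the median of all genes to 0.61 and -0.12. The processing list had 3 higher and none lower on both scales. Scaling per cell called 6949 of 13629 genes higher, so 3 of 5 does not set the list apart there. Library totals called 1847 of 13869 genes higher. Without the non-efferocytic library of Experiment 1 or of Experiment 2, a fit that could then have no block called 0 genes higher among all genes (edgeR, 2999 and 3494 at an unadjusted p under 0.05).

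Granins and other dense-core vesicle genes were at or under 0.226 CPM in every library. Cadps was the only 1 of 7 that could be tested, at 0.0198, 0.136, 0.108 and 0.226 CPM (log2 fold change 1.56, SE 0.507, edgeR adjusted p = 0.0415). Among the peptidases that cut neuropeptide Y, Xpnpep1 was at 18.0, 21.6, 18.1 and 27.3 CPM and higher in efferocytic libraries (log2 fold change 0.54, SE 0.0905, edgeR adjusted p = 0.00305). Mme, neprilysin, was at 1.65, 0.624, 1.61 and 0.780 CPM and lower (-1.11, SE 0.186, edgeR adjusted p = 0.00302). Markers of other cell types were also lower in this comparison, 9 of 9 for neutrophils, 5 of 5 for monocytes and 5 of 7 for fibroblasts. The part of those cells in the values of this paragraph was not tested. Dpp4 stood at 0.0320 to 0.137 CPM and Fap at 0.160 to 0.425 CPM, and neither passed the test. Of 27 other neuropeptide and peptide hormone genes 7 could be tested, and 4 were lower in efferocytic libraries while none was higher: Edn1, Nmb, Penk and Pomc, with log2 fold changes of -4.33, -0.58, -0.66 and -0.88, named here after their values were seen. By UMIs per cell the same list had 1 higher and 1 lower, and the peptidases had 1 higher and none lower.

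Genes whose levels went with Npy from cell to cell were next described within each library. The Pearson correlation of log(1 + UMIs) was computed over 6151 to 10007 cells thinned to 5000 UMIs, for the 6493 genes with a UMI in at least 5% of the cells of every library. The cells of a library share its depth and free RNA, so these values carry no p. The median correlation lay between -0.00413 and 0.000822. Lgals3, which encodes the lectin galectin-3, stood first in order of its lowest value, with 0.28, 0.26, 0.29 and 0.28. It was followed by Capg, an actin-capping protein, with 0.19 to 0.23, and by S100a6, Ctsl (the lysosomal protease cathepsin L) and Tmsb10, with 0.177 to 0.239. The other genes of the 15 most like Npy were Rnh1, Cyba, Plin2, Cstb, Cd9, Anxa1, Pfn1, Mmp12, Vim and Sh3bgrl3, with correlations from 0.14 to 0.24. They include a lipid droplet protein (Plin2), a tetraspanin (Cd9), a macrophage metalloelastase (Mmp12) and several genes of the actin and intermediate filament cytoskeleton.

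At the other end stood Selenop, the secreted selenium carrier selenoprotein P, with -0.25, -0.25, -0.28 and -0.29. Stab1, a scavenger receptor for apoptotic cells, Apoe, Gas6, a bridging ligand of the TAM receptors, Wwp1, Serinc3, Rpl37a and the complement gene C1qa completed the 8 most unlike Npy, with -0.23 to -0.12. In all 27 genes were above 0.1 and 21 below -0.1 in each of the 4 libraries. Within single macrophage-like clusters of at least 500 cells, of which there were 12 over the libraries, 12 of the 15 genes kept a positive sign in all 12 and 6 of the 8 a negative sign, and the others did so in 11. The values were lower there, with medians of 0.07 to 0.19 and of -0.18 to -0.07. Between libraries, 12 of the 15 genes were higher in efferocytic BM macrophages and none lower (median log2 fold change 0.71, against -0.02 over all genes), and 6 of the 8 were lower and none higher (median -0.70), beside the 19.9% and 19% of all genes given above.

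**Figure D4:**
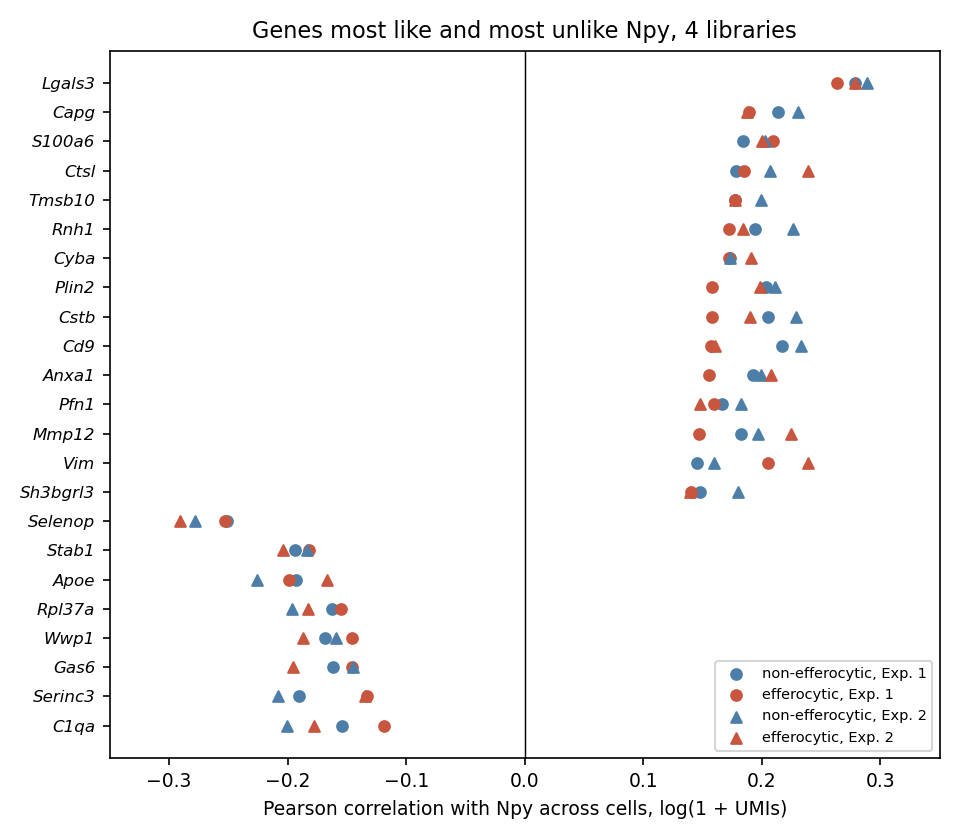
Pearson correlation with Npy across thinned cells for the 15 genes most like and the 8 most unlike Npy, with 1 symbol per library. The 4 symbols of a gene lie on the same side of 0 by the rule that chose the gene, and Lgals3 and Selenop lie farthest out.

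Cells with and without Npy were then compared across libraries. UMIs were summed per library over the thinned cells with at least 1 Npy UMI (743, 2025, 1701 and 3858 cells) and over those with none (6438, 4126, 8306 and 4045 cells), and the 8 sums were fitted with the library as a block, so that each library was its own control. Of 11785 genes tested, 19.6% were called, 1120 higher (9.5%) and 1185 lower (10.1%) in cells with an Npy UMI by edgeR at an adjusted p under 0.05, of which 1058 and 1155 went the same way in all 4 libraries. Most differences were small: 27 of the higher and 202 of the lower genes reached 2-fold. Cells with an Npy UMI held Npy itself at 307, 405, 322 and 493 CPM. The class rests on few UMIs, and a cell without an Npy UMI after thinning may have had one before it. An Npy UMI may also be free RNA, in which Npy stood at 29.1, 78.8, 57.1 and 185 CPM.

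Among called genes that averaged 10 CPM or more and moved 1 way in all 4 libraries, Cdkn1c, an inhibitor of cyclin-dependent kinases, had the largest increase. In cells with Npy it was at 41.7, 72.5, 18.9 and 81.4 CPM, and in cells without at 4.72, 21.4, 7.08 and 23.6 CPM, higher in each library (log2 fold change 1.90, SE 0.143, edgeR adjusted p = 9.43e-07). Pdpn, the membrane glycoprotein podoplanin, followed with 16.7, 25, 22.5 and 39.1 CPM against 3.67, 8.87, 5.95 and 14.1 CPM (1.69, SE 0.0976, edgeR adjusted p = 7.76e-08). Both genes also led the cluster of Experiment 2 with the most Npy. The integrin subunit Itgb7 (log2 fold change 1.19), the serine protease gene Prss46 (1.12), the heparan sulfate proteoglycan Sdc1 (1.10), Mmp12 (1.08), the chemokine receptor Ccr1 (1.02), the collagen-degrading protease Ctsk (0.91), Rhov (0.88) and Ifrd1 (0.83) completed the 10 largest increases above that limit. All 10 had edgeR adjusted p-values of 0.000561 or less, and among macrophage-like cells alone their log2 fold changes were between 0.88 and 1.94.

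The 10 largest decreases above the same limit were in genes of other cell types: S100a9, S100a8, Chil3, Camp, Ngp, Wfdc21, Ltf and Lcn2, known from neutrophils and their precursors, and the collagen genes Col1a1 and Col1a2, with log2 fold changes from -4.55 to -2.97. S100a9 was at 3.77, 16.9, 247 and 9.34 CPM in cells with Npy and at 1085, 620.5, 1264 and 550.3 CPM in cells without. All 9 neutrophil markers together summed to 23.4 to 710 CPM with Npy and 1357 to 3325 CPM without. Among macrophage-like cells alone S100a9 was still called, at -0.66 (edgeR adjusted p = 0.026), whereas S100a8, Chil3, Camp, Ngp, Col1a1, Ltf, Lcn2 and Col1a2 were not and Wfdc21 could not be tested. There 1061 genes were higher and 959 lower, and the neutrophil list had 2 lower of 6 tested, against 7 of 8 among all cells. Among all cells, 723 genes were higher and 727 lower when cells above 20000 UMIs were left out, and 522 and 557 without the non-efferocytic library of Experiment 2.

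The genes most unlike Npy were also lower in cells with Npy. Selenop was at 1940, 1199, 1834 and 755 CPM with Npy and 3645, 1986, 3232 and 1229 CPM without (log2 fold change -0.77, SE 0.0335, edgeR adjusted p = 3.48e-09, and -0.82 among macrophage-like cells alone). Stab1 was at 438, 254, 364 and 243 CPM with and 742, 375, 561 and 353 CPM without (-0.60, SE 0.0404, edgeR adjusted p = 3.81e-07). Neither is in the list of macrophage markers. Of the 11 macrophage markers 6 were lower and 1, Cd68, higher (median -0.20, against -0.01 for all genes). F4/80 itself, Adgre1, on which the cells were sorted, was lower by 0.34 (SE 0.0445), the M-CSF receptor Csf1r by 0.32 (SE 0.0504) and C1qa by 0.37 (SE 0.0423), and the same count held among macrophage-like cells alone. All 15 genes most like Npy were higher and all 8 most unlike were lower here, which repeats their correlations in the same cells.

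Gene groups were listed for their known roles, but with earlier results of these data known, so their counts are descriptions and not independent evidence. Each count is set beside the 9.5% higher and 10.1% lower among all genes. Of 15 glycolysis genes 8 were higher and none lower (median 0.20), with Pfkp at 0.37 and Pgam1 at 0.33, and 8 higher and 1 lower when scaled to library totals. Of 16 lipid handling genes 10 were higher and 3 lower (median 0.21): Plin2 (0.54), Spp1, osteopontin (0.45), and Fabp4, a fatty acid binding protein (0.39), were higher, and Apoe (-0.42), Abca1 (-0.31) and Mylip (-0.27) lower. Among 22 lysosomal enzymes and proton pump subunits 8 were higher, led by Ctsk, Ctsl (0.70) and Atp6v0d2 (0.65), and 3 lower (median 0.08). ATF4 targets had 3 higher of 11 and none lower, with Mthfd2 at 0.39 (0.023 and not called with cells thinned to 2000 UMIs), and mitosis genes had 3 higher and 1 lower of 12 (4 and 0 among macrophage-like cells alone). Of the called mitosis genes, Birc5, Tpx2 and Top2a were not called with cells thinned to 2000 UMIs (0.30, 0.43 and -0.07). The DNA replication list, with 1 higher of 12, Pcna (0.30), and the interferon response list, with 1 lower of 11, Ifit2 (-0.23), stood near the share of all genes.

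In other groups the called genes were mostly lower. MHC class II genes had 4 lower of 8 and none higher (median -0.45), with H2-Eb1 at -0.82 and H2-Aa at -0.75, and 2 lower of 8 among macrophage-like cells alone, where H2-Eb1 was at -0.42 (edgeR adjusted p = 0.0534). Those cells leave out cluster 2 of Experiment 2, which is led by H2-Aa, H2-Ab1 and Cd74, but keep cluster 2 of Experiment 1, led by Cd74, so MHC class II is not compared there over the same macrophages in both experiments. Of 10 immediate-early genes 6 were lower, among them Fosb (-0.81) and Egr1 (-0.73), and 1, Atf3 (0.25), higher. Among macrophage-like cells alone 3 were lower. Receptors and bridging molecules of efferocytosis were split, with 5 lower of 14 (Stab1, Gas6, Pros1, Axl and Mertk, from -0.60 to -0.22) and 2 higher (Mfge8, 0.59, and Cd36, 0.27). Of 8 tested cAMP and CREB target genes 2 were lower, Pde4d (-1.12) and Nr4a1 (-0.70), and none higher. Pde4d was at -0.58 among macrophage-like cells alone (edgeR adjusted p = 0.163), and neither gene was called with cells thinned to 2000 UMIs. Of the listed genes of neuropeptide processing, Cpe was higher (0.46, SE 0.129, edgeR adjusted p = 0.0222) and Mme lower (-2.27, SE 0.569, edgeR adjusted p = 0.0115), the latter not testable among macrophage-like cells alone, and no other neuropeptide gene passed. Mme was at 0, 0, 0.588 and 0.104 CPM in cells with Npy and 0.559, 0.582, 1.035 and 1.038 CPM in cells without, so its decrease rests on very low counts.

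The study's list for negative regulation of immune system processes had 13 higher of 20 and none lower (median 0.31). The study names Npy itself in this list of genes upregulated in efferocytic BM macrophages, and Npy is left out of the count. The list was chosen by the study on these samples and is not independent evidence of its direction. The largest differences in the list were those of Mmp12, Cd200 (1.04), Ccr1 and Anxa1 (0.67). Of the 8 testable markers of RM1-type tumor cells 4 were lower and 1, Cav1 (1.30), higher, and Col1a1, Col1a2 and Tagln, which fibroblasts share, were among the lower. In the efferocytic library of Experiment 2 Cav1 was at 2.85 CPM with Npy and 2.87 CPM without. The 16 listed markers summed to 6.79 to 51.2 CPM in cells with Npy and 32.3 to 94.4 CPM in cells without, and among macrophage-like cells alone none of 5 was lower. Monocyte markers had 4 lower of 5, fibroblast markers 5 lower of 6, and the testable B cell and T and NK cell markers (Cd79b and Nkg7) were both lower, although among macrophage-like cells alone Cd79b was not called (edgeR adjusted p = 0.123), nor among cells of at most 20000 UMIs, and Nkg7 could not be tested. In macrophage-like cells alone monocyte markers had 3 lower of 3 tested and fibroblast markers none of 4. What part the other cell types had in any of these differences was not tested beyond the values among macrophage-like cells.

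Lastly, the difference between cells with and without Npy was itself compared between efferocytic and non-efferocytic BM macrophages, as the interaction of Npy class and group in the same 8 sums. It was called for 284 of 11785 genes (2.41%), higher in efferocytic cells for 66 (0.56%) and lower for 218 (1.85%), by edgeR at an adjusted p under 0.05. The ratio was nearer to 0 in efferocytic cells for 64 of the 66 and 197 of the 218 genes, by the mean of the 2 libraries of each group. Of the 15 genes most like Npy 13 were among them, and all 13 had the smaller increase in efferocytic cells. The correlations with Npy across cells were also lower in efferocytic libraries for most of them, such as Cd9 (0.217 and 0.233 against 0.157 and 0.160), by little for Lgals3 (0.279 and 0.289 against 0.263 and 0.279), while those of S100a6 and Ctsl were higher on average. The classes are divided at 1 Npy UMI in thinned cells. The share of cells with Npy was 17.9%, 51.9%, 23.7% and 69.0% before and 10.3%, 32.9%, 17.0% and 48.8% after thinning. In percentage points the drop was larger in efferocytic libraries. As a fraction of the share before thinning, it was smaller in the efferocytic library of Experiment 1 and nearly equal in Experiment 2. The shares before thinning are of all cells, and those after thinning leave out the cells with too few UMIs. The part of this drop in the interaction was not tested. Lgals3 had log2 ratios of 0.77 and 0.59 in non-efferocytic and 0.33 and 0.28 in efferocytic libraries (difference -0.38, SE 0.0443, edgeR adjusted p = 9.19e-07). Cd9 had 0.95 and 0.80 against 0.33 and 0.28 (-0.58, SE 0.0569, edgeR adjusted p = 4.17e-08).

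Fabp4 differed most clearly. Among non-efferocytic cells it was at 318 and 366 CPM with Npy and 169 and 220 CPM without, and among efferocytic cells at 729 and 543 CPM with Npy and 749 and 561 CPM without. The log2 ratio was 0.91 and 0.73 in non-efferocytic and -0.04 and -0.05 in efferocytic libraries (difference -0.86, SE 0.0616, edgeR adjusted p = 2.32e-11). Fabp4 thus stood higher in both classes of efferocytic cells than in either class of non-efferocytic cells. Clec10a, a C-type lectin, was lower in cells with Npy in every library, by -1.58 and -1.14 in non-efferocytic and -0.74 and -0.39 in efferocytic libraries (difference 0.73, SE 0.127, edgeR adjusted p = 0.0004). For Cdkn1c and Pdpn the interaction did not pass the test (edgeR adjusted p = 0.558 and 0.0676). The number of called genes depended on single libraries, from 31 higher and 121 lower without the efferocytic library of Experiment 1 to 110 and 373 without the non-efferocytic library of Experiment 2, with 106 and 247, and 34 and 110, without the non-efferocytic library of Experiment 1 and the efferocytic library of Experiment 2.

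**Figure D5:**
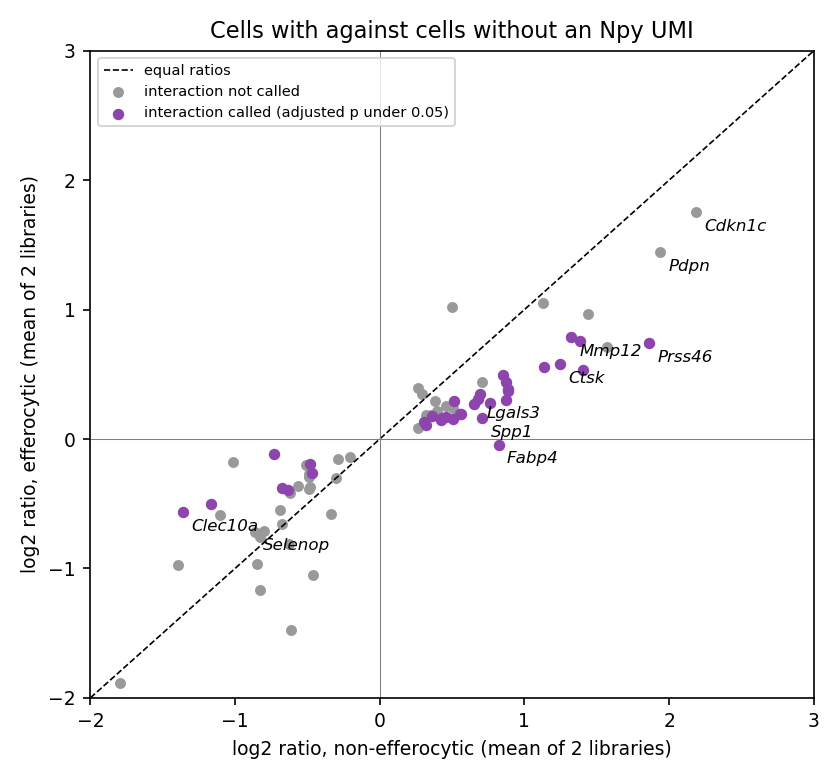
Log2 ratio of cells with to cells without an Npy UMI, as the mean of the 2 efferocytic against the mean of the 2 non-efferocytic libraries, for 75 of the 89 named genes called between the classes. The other 14 have a ratio under -2 in at least 1 group and lie outside the axes. Purple points have a called interaction, and all 34 drawn lie nearer to 0 on the efferocytic axis.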

How the data were processed

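Libraries were made with the 10x Genomics 3′ kit. Per the labels and the methods, reads were mapped to mm10 with Cell Ranger 3.0.0 (the file headers of Experiment 2 name 3.1.0), and Seurat 3.1 was used downstream. The values the authors deposited are unnormalized UMI counts for all barcodes. Capture at the 3′ end counts transcripts and not isoforms, and UMIs limit duplicate reads. Here, the limits on genes, UMIs and mitochondrial share stated in the methods were applied to all barcodes, which left more cells than the study lists. Sums per library were tested in R 4.3.3 by the quasi-likelihood method of edgeR 4.0.16, after filterByExpr and TMM scaling. Adjusted p-values (Benjamini-Hochberg) under 0.05 were called. Npy was left out of its own class test, which uses cells thinned to 5000 UMIs. CPM is UMIs per 1000000 UMIs of all cells summed; per-library ratios add 0.5 CPM to each side. Standard errors are the fold change over the square root of F. edgeR was tested on simulated counts.

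Npy, the gene lists and the tests were chosen with earlier results of these data known. Named genes were the 15 with the highest minimum and the 8 with the lowest maximum correlation with Npy over the 4 libraries, the 10 largest called fold changes per direction between cells with and without Npy (mean of at least 10 CPM, same direction in all libraries), the 5 largest interactions per direction, genes of the neuropeptide Y lists, and up to 4 called genes of each other list. Abca1, Mylip, Atf3, Axl, Mertk and Cd36 were named after their values were seen. Cells were clustered per experiment (20 components of 5000 variable genes, Leiden resolution 0.5, leidenalg 0.10.2) without Npy. A cluster was named from at least 3 markers. The limits of that naming were set after the data were seen. Cluster 2 of Experiment 2, led by H2-Aa, H2-Ab1 and Cd74 (MHC class II) and with the monocyte marker Ccr2 among its top 10 genes, was kept out of the runs on macrophage-like cells alone, where it would have added 2639 non-efferocytic and 90 efferocytic cells. Doublets, called from simulated cell pairs (5.36% to 10.7% of cells), were removed as an alternative. Libraries of an experiment deviated together (correlation 0.492 over 6610 genes), and experiment was the block between groups. The study calls the experiments independent, and what the libraries of 1 experiment shared is not stated. The block in the class test is the library itself. DESeq2 1.42.0 was the second tool.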

Additional observations from a re-analysis of the deposited data

Results flagged for a closer look

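For 46 named genes, the log2 ratio of cells with to cells without an Npy UMI differed between efferocytic and non-efferocytic libraries by a test of that difference (edgeR interaction, adjusted p from 2.32e-11 to 0.0442, 2.41% of all genes). Differences are efferocytic minus non-efferocytic, on the log2 scale, as fitted to the summed counts. Fabp4 had the smallest p, with -0.86, and the lipid genes Spp1 and Plin2 had -0.55 and -0.49. Among the genes most like Npy the differences were -0.38 for Lgals3, -0.39 for Capg, -0.23 for S100a6, -0.37 for Ctsl, -0.35 for Tmsb10, -0.52 for Rnh1, -0.36 for Cstb, -0.58 for Cd9, -0.43 for Anxa1, -0.19 for Pfn1, -0.54 for Mmp12 and -0.18 for Sh3bgrl3. Other genes that were higher in cells with Npy had -1.19 (Prss46), -0.70 (Ccr1), -0.66 (Ctsk), -0.77 (Rhov), -0.58 (Ifrd1), -0.50 (Atp6v0d2), -0.35 (Gla), -0.35 (Pfkp), -0.30 (Pgam1), -0.29 (Hk3), -0.27 (Pcna) and -0.22 (Cd68). For all of these the ratio was nearer to 0 in efferocytic libraries. Genes that were lower in cells with Npy and had a ratio nearer to 0 in efferocytic libraries were Clec10a (0.73), Marcksl1 (0.64), Ccl2 (0.63), Csf1r (0.29), Serinc3 (0.28), Gas6 (0.22) and Adgre1 (0.20). Ehd1, with 0.56, was not called between the classes.

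For genes of neutrophils and fibroblasts the fit gave -4.41 for Wfdc21, -3.28 for Camp, -3.25 for Col1a1, -3.04 for Lcn2, -2.64 for Ltf, -2.34 for Ngp, -2.33 for S100a9, -1.97 for Col1a2, -1.65 for Chil3 and -1.48 for S100a8. The experiments went opposite ways for the 8 neutrophil genes: the ratio was nearer to 0 in the efferocytic library of Experiment 1 (S100a9 -5.16 against -7.99, Camp -4.79 against -6.77) and farther from 0 in that of Experiment 2 (-5.81 against -2.35, and -6.93 against -1.85), so the fitted sign is that of Experiment 2 alone. For Chil3, with -3.87 and -5.23 in efferocytic and -8.05 and -2.71 in non-efferocytic libraries, the mean of the ratios has the sign opposite to the fitted value. The -8.05 comes from 0 CPM of Chil3 in cells with Npy, so its size is set by the 0.5 CPM added to each side. Wfdc21 was also at 0 CPM in those cells. In Experiment 1 the non-efferocytic and efferocytic ratios were -4.30 and -4.08 for Col1a1 and -3.20 in both libraries for Col1a2. Cells with Npy there held Col1a1 at 0.808 and 0.296 CPM and Col1a2 at 1.89 and 0.889 CPM. These levels are near the 0.5 CPM added to each side, so the ratios cannot order the groups in that experiment. In Experiment 2 the efferocytic ratio was farther from 0 for both genes. In cells with Npy the neutrophil markers summed to 710 CPM in the non-efferocytic library of Experiment 2 and to 23.4, 58.0 and 35.4 CPM in the others. Ccl5 had the largest positive difference, 2.76, with log2 ratios of 1.81 and -1.75 in the non-efferocytic and 0.52 and 2.74 in the efferocytic libraries, so that the non-efferocytic libraries were on opposite sides of 0.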

How the results depend on the processing

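The mean log2 ratio of Npy between efferocytic and non-efferocytic libraries was 2.00. With other cell filters, doublets removed, macrophage-like cells alone or shared barcodes removed (chosen after seeing the data), it was 1.93 to 2.00. With 10% of UMIs removed as free RNA, a set share and not an estimate, it was 2.03. It was 2.72 by UMIs per cell and 1.57 to 2.42 without each library in turn. The difference in the share of cells with Npy, 27.2 points, was 17.3 at 2000 UMIs per cell, 30.3 at 10000 and 39.7 unthinned. Against 1120 genes higher and 1185 lower in cells with Npy, the totals called, each over its own tested genes, were 521 and 528 at 2000 UMIs per cell, 646 and 578 by DESeq2, 723 and 727 in cells of at most 20000 UMIs (chosen after seeing the data), and 522 to 987 and 557 to 997 without each library in turn. With no replicate block, edgeR called 0 and 1, with 860 genes at an unadjusted p under 0.05; the block is the library, from which both classes came. For the interaction (66 and 218, with 11785 genes tested), at least 2 Npy UMIs against 0 gave 267 and 395. DESeq2 gave 12 and 65, and leaving out each library gave 31 to 110 and 110 to 373. DESeq2 tested only 1886 genes there, so its counts cannot be set directly beside those of edgeR. Between groups (2761 and 2636), edgeR with no replicate block called 1285 and 1073, UMIs per cell gave 6949 and 558, library totals 1847 and 3700 (33.3% of calls higher, against 51.2%), and DESeq2 2119 and 1392. Library totals moved the median of all genes to -0.12. Leaving out each library, with no replicate block, gave 0 to 1658 and 0 to 1275 (630 and 574 without the efferocytic library of Experiment 2; edgeR, at least 2999 genes at an unadjusted p under 0.05 where it called 0 higher). Of 91 named genes, only 1 changed sign, the log2 fold change of 0.22 of Ccl5 in cells with against without an Npy UMI: it was -0.79 for at least 2 Npy UMIs, -1.61 at 2000 UMIs, -0.0556 with no replicate block, and -0.43 to 1.98 without each library in turn. Macrophage-like cells alone kept 69 of 91 on the same side of the threshold, lost 17 and could not test 5. The cause of these changes was not tested, beyond the fewer cells or genes of the stricter settings. At 5000 UMIs per cell, a cell without an Npy UMI is not shown to lack Npy RNA.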
